A study of Homo sapiens with 4 samples.

Results

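The 7 genes described here are often altered in bladder cancer and were followed in RNA sequencing libraries of T24T and UMUC3 bladder cancer cells. They were HRAS, NRAS, BRAF, RB1, PIK3CA, FGFR3 and TERT, chosen by name, and all 7 of 7 were found among the 32973 genes of the deposited table. Each line had been stably transfected with a plasmid that overexpresses BCUC-1, the circular RNA hsa_circ_0001361, or with empty vector, and was grown in RPMI-1640 with serum and antibiotics. The 4 groups, T24T BCUC-1, T24T vector, UMUC3 BCUC-1 and UMUC3 vector, held 1 library each, and the study looked for genes that respond to BCUC-1. Whether each transfected line was a clone or a pool is not given in the sources used here, and the level of BCUC-1 itself is not measured by gene values.

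The 7 genes belong to the growth control circuits that bladder tumours often alter. FGFR3 is a receptor tyrosine kinase of the urothelium that passes fibroblast growth factor signals to RAS. HRAS and NRAS are small GTPases that switch on the kinase BRAF and the lipid kinase PIK3CA. RB1 is the tumour suppressor that holds E2F transcription factors in check until cyclin-dependent kinases phosphorylate it. TERT is the catalytic subunit of telomerase, which is silent in most adult cells and switched on in most carcinomas. T24, the parent of T24T, is a textbook source of an activated HRAS oncogene. The table holds no alleles, so only levels are described.

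The libraries held between 22730112 and 26497894 reads assigned to genes. Of the 14 urothelial markers examined, 5 reached 1 RPKM in each T24T library and 4 did in each UMUC3 library. KRT8 and KRT18, the simple epithelial keratins, made up most of their summed level, which was 264 and 247 RPKM in T24T BCUC-1 and vector and 61.3 and 59.1 RPKM in UMUC3 BCUC-1 and vector. The uroplakin UPK3A had 0, 0, 1 and 0 reads in T24T BCUC-1, T24T vector, UMUC3 BCUC-1 and UMUC3 vector, so this defining marker of umbrella cells was at or near 0. The 4 endothelial markers summed to at most 0.0772 RPKM in any library. CD68, a lysosomal protein used as a macrophage marker, was the 1 of 3 leukocyte markers to reach 1 RPKM, at 6.78 and 7.45 RPKM in T24T and 124 and 119 RPKM in UMUC3, whereas CD14 had at most 6 reads in a library. The summed level of 4 epithelial junction markers was 2.37 and 3.40 RPKM in T24T BCUC-1 and vector and 0.158 and 0.135 RPKM in UMUC3. CLDN4 made up most of it in T24T, at 2.05 and 3.11 RPKM. The sum of 5 mesenchymal markers was 101 and 96.3 RPKM in T24T and 296 and 264 RPKM in UMUC3. It was mostly VIM, at 87.0 and 82.9 RPKM in T24T and 267 and 234 RPKM in UMUC3. ZEB1 and ZEB2 were lower in T24T, as VIM was, whereas CDH2 and FN1 were higher there. No erythroid or hepatocyte marker reached 1 RPKM. The part of these markers in the results was not tested.

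The promoters of 3 genes that were higher in T24T than in UMUC3 are shown here for reference. They are sequence of the reference genome, not of either line, and their part in the differences was not tested. Each is the RefSeq window (GRCh38.p14) of 250 bases before to 50 bases after an annotated start, 5′ to 3′, and capitals mark GC boxes, GGGCGG on either strand, with overlapping matches counted. The windows are chr5:1295019-1295318 for TERT, chr11:535527-535826 for HRAS and chr1:114716722-114717021 for NRAS, all on the minus strand. The HRAS window lies 1711 bases inside the gene as counted, at another annotated start.
TERT: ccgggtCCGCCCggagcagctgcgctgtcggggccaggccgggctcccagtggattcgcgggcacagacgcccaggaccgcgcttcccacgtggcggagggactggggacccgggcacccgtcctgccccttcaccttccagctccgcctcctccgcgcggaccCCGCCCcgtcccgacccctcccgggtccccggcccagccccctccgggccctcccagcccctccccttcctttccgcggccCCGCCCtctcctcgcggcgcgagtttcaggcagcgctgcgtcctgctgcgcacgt
HRAS: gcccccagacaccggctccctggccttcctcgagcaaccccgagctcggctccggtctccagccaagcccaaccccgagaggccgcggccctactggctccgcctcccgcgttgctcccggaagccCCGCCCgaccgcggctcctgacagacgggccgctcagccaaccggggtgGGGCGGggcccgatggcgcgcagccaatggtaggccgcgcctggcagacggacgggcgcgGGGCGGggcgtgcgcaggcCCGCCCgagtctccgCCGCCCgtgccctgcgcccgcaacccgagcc
NRAS: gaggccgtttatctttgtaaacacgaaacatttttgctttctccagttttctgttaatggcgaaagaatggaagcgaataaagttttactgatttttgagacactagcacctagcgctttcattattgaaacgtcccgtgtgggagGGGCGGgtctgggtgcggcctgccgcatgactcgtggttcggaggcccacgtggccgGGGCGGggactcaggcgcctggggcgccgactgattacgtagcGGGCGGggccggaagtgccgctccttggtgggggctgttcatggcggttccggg
The TERT and HRAS windows were 77.3% and 78.0% G or C, against 57.3% for NRAS. They held 3 GC boxes in TERT, 5 in HRAS and 3 in NRAS. Of the other windows, that of FGFR3 held 8, that of PIK3CA 1 and that of BRAF 0. Among 35116 RefSeq windows of the same length, 45.0% held at least 1 GC box and 15.8% held at least 3. The window of RB1 lies 172699 bases from the start of the gene as counted and was not used.

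The 7 genes spanned a wide range of levels, given here as RPKM, reads scaled by gene length and by the assigned reads of the library. NRAS and HRAS were the highest and stood above 91.6% or more of the genes with a read in every library. RB1 came next in every library and FGFR3 was last, with BRAF, TERT and PIK3CA between them. In T24T, HRAS and NRAS could not be ordered, because their 95% counting intervals overlapped in both libraries. In UMUC3, NRAS was above HRAS in both libraries with intervals apart. TERT was above BRAF in both T24T libraries, whereas in UMUC3 it was below both BRAF and PIK3CA, whose own intervals overlapped there.

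**Figure D1:**
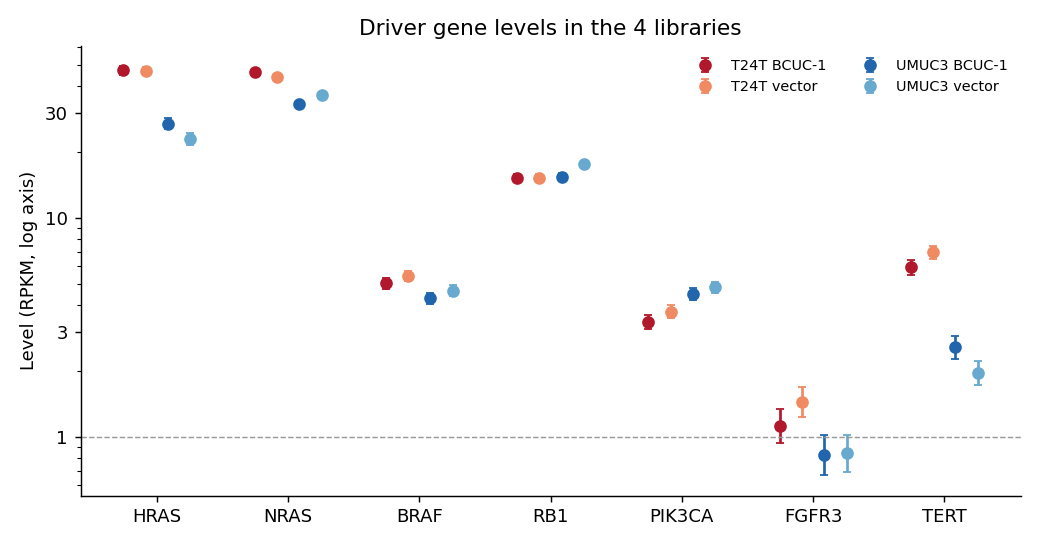
Level of each gene in RPKM (log axis) in the 4 libraries, with exact Poisson 95% intervals that cover counting error only. The dashed line marks 1 RPKM, which FGFR3 reached in both T24T libraries and in neither UMUC3 library.

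The first comparison set T24T against UMUC3, with the BCUC-1 and vector libraries of each line as its 2 samples. TERT, HRAS and NRAS were higher in T24T, PIK3CA was lower, and BRAF and RB1 did not pass the test. FGFR3 entered the test through its level in T24T alone, so its values are given as a description. The test was limma, two-sided, on log2(RPKM + 1) of the 15415 genes that reached 1 RPKM in 2 libraries, with the Benjamini-Hochberg adjusted p held at 0.05. It called 5 of the 7 genes with FGFR3 counted, beside 70.4% of all genes tested, so the share called was near that of any gene. Both shares include genes that passed the floor through 1 line alone, so they are a description. By direction, 40.8% of all genes were higher in T24T and 29.6% were lower. With no filter limma called 2 of the 7, HRAS and TERT, beside 9908 of all 32973 genes. The RPKM values of the 2 libraries of each line did not overlap those of the other line for 7 of 7 genes, against 85.7% of the 15415 genes tested. For RB1 the gap was only 15.28 RPKM in T24T BCUC-1 against 15.30 RPKM in UMUC3 BCUC-1. Counting intervals of RB1, BRAF and FGFR3 overlapped between the lines. Each line is 1 cell line, and no label says that further cultures stand behind a library. The p-values rest on the spread left between these libraries after the line and treatment terms. Limma draws the spread of each gene toward that of genes of like level, and that spread may be technical. As these are bulk libraries, fewer cells that express a gene and less RNA per cell cannot be told apart.

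TERT had the largest difference of the 7. It stood at 5.95 and 6.95 RPKM in T24T BCUC-1 and vector (648 and 760 reads), against 2.57 and 1.95 RPKM in UMUC3 BCUC-1 and vector (270 and 239 reads). Both T24T libraries were thus above both UMUC3 libraries, with mean levels 2.85-fold apart. On the log2(RPKM + 1) scale, which understates the change of low genes, the difference was 1.19 (SE 0.13, limma adjusted p = 2.50e-04). TERT lies on chromosome 5 from 1253147 to 1295069 on the minus strand (GRCh38), and no other gene of the table shares its exons.

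HRAS was the second largest. It had 47.1 and 47.0 RPKM in T24T BCUC-1 and vector, against 26.9 and 22.9 RPKM in UMUC3 BCUC-1 and vector. The T24T libraries were nearly equal and lay 1.89-fold above the UMUC3 mean. The log2 difference was 0.89 (SE 0.078, limma adjusted p = 8.75e-05). HRAS lies on chromosome 11 from 532242 to 537287.

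NRAS, its paralogue on chromosome 1 (114704469 to 114716894), differed less. It had 46.2 and 44.2 RPKM in T24T BCUC-1 and vector, against 32.9 and 36.4 RPKM in UMUC3 BCUC-1 and vector. The log2 difference was 0.37 (SE 0.075, limma adjusted p = 0.00401). The call was lost with no filter on low values (limma adjusted p = 0.0545) and without the T24T BCUC-1 library (limma adjusted p = 0.0619).

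FGFR3 was low throughout, at 1.12 and 1.44 RPKM in T24T BCUC-1 and vector (128 and 165 reads), against 0.828 and 0.843 RPKM in UMUC3 BCUC-1 and vector (91 and 108 reads). It passed the floor of 1 RPKM through the T24T libraries alone, so the filter itself selected on its level there and the filtered test is not used for it. Its log2 difference was 0.31, and the limma fit of all genes with no filter did not call it (adjusted p = 0.148). FGFR3 lies on chromosome 4 from 1793307 to 1808872.

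PIK3CA, the catalytic p110-alpha subunit, ran the other way. It had 3.36 and 3.72 RPKM in T24T BCUC-1 and vector, against 4.47 and 4.81 RPKM in UMUC3 BCUC-1 and vector. T24T was lower in both libraries, with a log2 difference of -0.31 (SE 0.095, limma adjusted p = 0.0223). With each library left out in turn the limma adjusted p was between 0.0504 and 0.167, and with no filter on low values it was 0.0637. PIK3CA lies on chromosome 3 from 179148114 to 179240093 and shares 3403 exonic bases with KCNMB3 on the other strand. Whether counting used strand is not given in the sources used here, so reads of the pair may be shared. KCNMB3 had more reads in T24T (480 and 500 in BCUC-1 and vector) than in UMUC3 (228 and 325), the opposite order to PIK3CA.

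BRAF and RB1 did not pass the test. BRAF had 5.02 and 5.42 RPKM in T24T BCUC-1 and vector, against 4.29 and 4.65 RPKM in UMUC3 BCUC-1 and vector, a log2 difference of 0.19 (SE 0.092, limma adjusted p = 0.112). BRAF lies on chromosome 7 from 140719327 to 140924764 and shares 1239 exonic bases with NDUFB2 on the other strand, which had between 1099 and 1306 reads in a library. RB1, on chromosome 13 from 48303751 to 48481986, had 15.3 and 15.2 RPKM in T24T BCUC-1 and vector, against 15.3 and 17.6 RPKM in UMUC3 BCUC-1 and vector. The 3 libraries other than UMUC3 vector were nearly level, and the log2 difference was -0.10 (SE 0.082, limma adjusted p = 0.300). Without the UMUC3 BCUC-1 library it was -0.20 (limma adjusted p = 0.0282), lower in T24T.

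The scale and the fit bear on these small values. On the deposited scale the median gene was 0.10 higher in T24T on the log2 scale, and with limma-voom and trimmed-mean scaling of the recovered reads it stood at -0.0070. With limma-voom, which changes the scale of the values and their weights together, RB1 was called lower in T24T (log2 difference -0.24, SE 0.083, limma-voom adjusted p = 0.00528) and BRAF stood at 0.090. Scaling alone left RB1 uncalled, at -0.19 with equal medians (limma adjusted p = 0.0863) and -0.19 with quantile normalization (limma adjusted p = 0.0979). By limma-voom TERT (1.39), HRAS (0.79), NRAS (0.25) and PIK3CA (-0.52) were called in the same direction as before. With the trend of the differences with GC content removed, a setting chosen after seeing the data, the log2 difference was 1.00 for TERT, 0.70 for HRAS, 0.22 for NRAS and -0.48 for PIK3CA, all still called by limma. In the same setting RB1 was called at -0.29 (limma adjusted p = 0.00867), and FGFR3, at 0.17, was not (limma adjusted p = 0.0920).

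**Figure D2:**
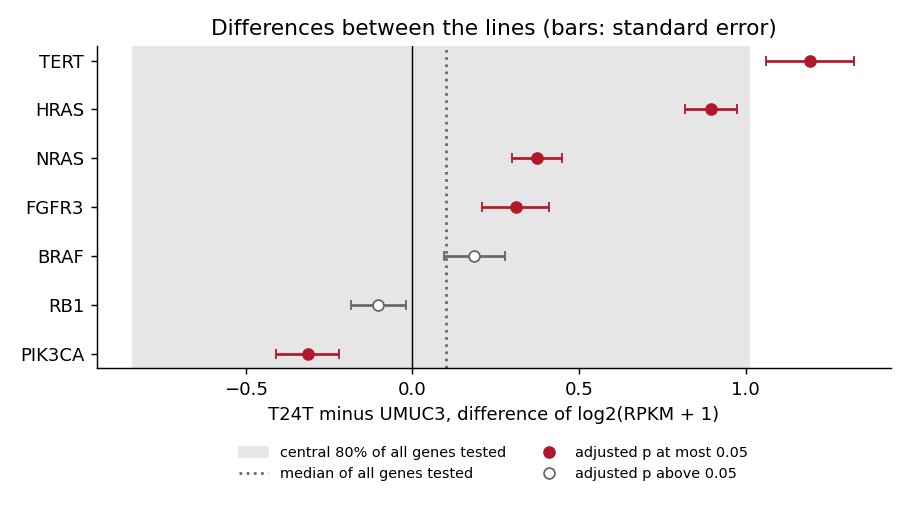
Difference between T24T and UMUC3 in log2(RPKM + 1) for each gene, with limma's standard error. The shaded band is the central 80% of all genes tested, from -0.84 to 1.01, and TERT at 1.19 is the 1 gene of the 7 beyond it. The filled point of FGFR3 is from the filtered test, which it entered through T24T alone.

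ARAF, a paralogue of BRAF, had 5.16 and 5.02 RPKM in T24T BCUC-1 and vector, against 5.95 and 4.91 RPKM in UMUC3 BCUC-1 and vector. The libraries of the lines overlapped, and its log2 difference of -0.074 did not pass the test of the lines (limma adjusted p = 0.525).

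FGFR3 was a minor member of its family in both lines, with 14.3% and 18.0% of the summed FGFR1 to FGFR4 level in T24T BCUC-1 and vector and 9.71% and 10.7% in UMUC3 BCUC-1 and vector. The leading receptor differed between the lines. FGFR4 had 4.36 and 4.12 RPKM in T24T BCUC-1 and vector, against 0.437 and 0.313 RPKM in UMUC3. FGFR1 had 1.91 and 1.87 RPKM in T24T BCUC-1 and vector, against 7.20 and 6.66 RPKM in UMUC3. FGFR4 passed the floor through T24T alone and its log2 difference of 1.93 is a description. The log2 difference of FGFR1 was -1.46 (SE 0.097, limma adjusted p = 2.73e-05). FGFR2 had at most 103 reads in a library and was below the floor.

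PIK3CA held 27.1% and 29.2% of the summed PIK3CA, PIK3CB and PIK3CD level in T24T BCUC-1 and vector, against 39.4% and 37.9% in UMUC3. PIK3CB was the highest of the 3 in every library, and its difference between the lines of 0.10 did not pass the test. Reads that PIK3CA may share with KCNMB3 could change the PIK3CA shares and this order. RB1 held 39.6% and 38.7% of the summed RB1, RBL1 and RBL2 level in T24T BCUC-1 and vector, against 43.6% and 45.6% in UMUC3. RBL1, the pocket protein p107, was higher in T24T (log2 difference 0.28, SE 0.076, limma adjusted p = 0.0158), and RBL2 (0.067) did not pass the test. The RBL1 call was lost with no filter, equal medians, quantile normalization and limma-voom and without either T24T library, at adjusted p-values of 0.0548 to 0.146 from limma.

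**Figure D3:**
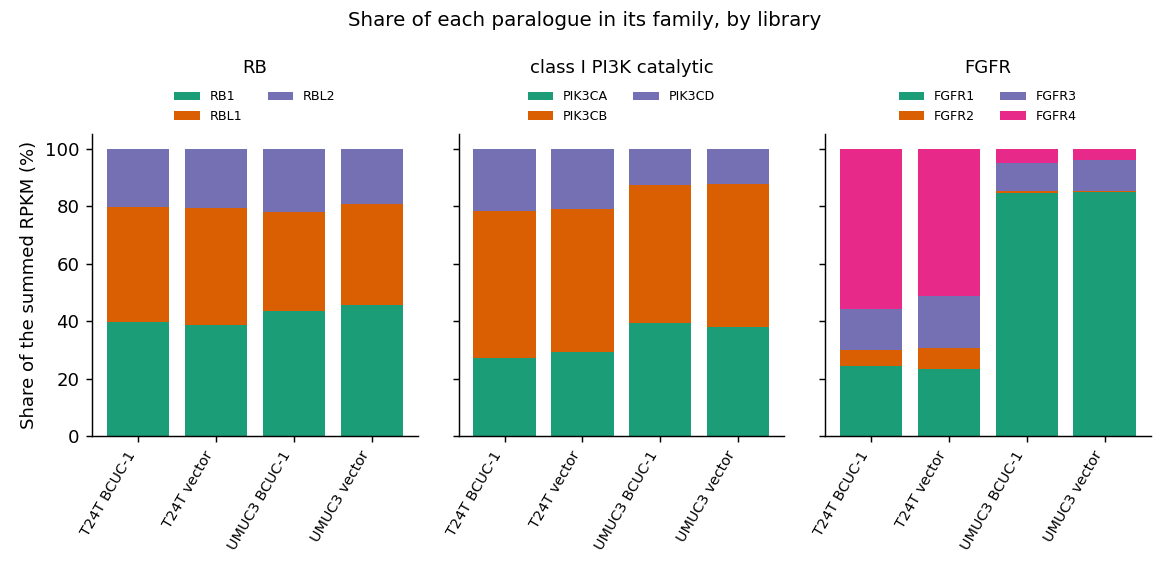
Share of each paralogue in the summed RPKM of the RB, PI3K catalytic and FGFR families, in percent, for each library. FGFR4 leads in the T24T libraries at 55.8% and 51.4% and FGFR1 in the UMUC3 libraries at 84.4% and 84.9%.

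The wider pathways of the 7 genes had called genes in both directions. Their counts are to be read beside the 40.8% of all genes that were called higher in T24T and the 29.6% called lower, and they include genes that passed the floor through 1 line alone. Of 39 genes of the RAS to ERK cascade, 32 passed the floor, and 12 were higher and 8 lower in T24T, with a median log2 difference of 0.12 beside 0.10 for all genes. The adaptor SHC1 was higher in T24T, at 102 and 101 RPKM in BCUC-1 and vector, against 31.5 and 29.8 RPKM in UMUC3. The kinase MAP2K1 (MEK1) was lower in T24T, at 25.2 and 23.4 RPKM, against 60.8 and 60.2 RPKM in UMUC3. MAPK3 (ERK1) was higher in T24T (log2 difference 0.78), as was NF1, the GTPase activator that switches RAS off (0.37). The NF1 call was lost without the T24T BCUC-1 library (limma adjusted p = 0.0505) and without the T24T vector library (limma adjusted p = 0.0841).

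Of 30 genes of the RB to E2F circuit, 30 passed the floor, and 12 were higher and 10 lower in T24T, with a median of 0.17. The RB kinase CDK4 was lower in T24T, at 28.6 and 26.6 RPKM in BCUC-1 and vector, against 66.7 and 66.6 RPKM in UMUC3. CCND1, which activates CDK4, was lower too (log2 difference -0.55), and CCND2 had 20 and 29 reads in T24T BCUC-1 and vector, against 1065 and 1225 in UMUC3. The CDK4 inhibitor gene CDKN2A had 611 and 664 reads in T24T BCUC-1 and vector, against 1 and 0 in UMUC3. CDKN2B beside it had 130 and 131 reads in T24T, against 0 and 0 in UMUC3. E2F1, the RB1 target, did not pass the test (0.15).

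Of 30 genes of the PI3K to AKT pathway, 29 were in the table and 25 passed the floor, and 13 were higher and 6 lower in T24T, with a median of 0.23. GAB2 (log2 difference -1.57) and FOXO3 (-1.01) were lower in T24T. The docking protein gene IRS2, which passed the floor through T24T alone, had 7.40 and 7.11 RPKM in T24T BCUC-1 and vector, against 0.551 and 0.751 RPKM in UMUC3. PIK3R1, the regulatory subunit that binds PIK3CA, was higher in T24T, at 2.97 and 2.97 RPKM, against 1.81 and 1.75 RPKM in UMUC3.

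Of 33 FGF receptor and ligand genes, 27 were in the table and 12 passed the floor, and 5 were higher and 5 lower in T24T, with a median of 0.13. FGFRL1, a receptor without a kinase domain, was higher in T24T (log2 difference 2.09). The ligand FGF1, which passed the floor through UMUC3 alone, had 0.265 and 0.192 RPKM in T24T BCUC-1 and vector, against 1.95 and 1.80 RPKM in UMUC3. Of 23 telomerase and telomere genes, 22 passed the floor, and 4 were higher and 10 lower in T24T, with a median of -0.066. Dyskerin, encoded by DKC1, was lower in T24T, where TERT was higher. It had 127 and 116 RPKM in T24T BCUC-1 and vector, against 184 and 174 RPKM in UMUC3 (log2 difference -0.56). GAR1 (-0.48) and the dyskerin chaperone SHQ1 (-0.91) were lower as well, and the helicase gene RTEL1 was higher (0.93). The GAR1 call was lost with no filter (limma adjusted p = 0.0845), without T24T BCUC-1 (limma adjusted p = 0.0547) and without T24T vector (limma adjusted p = 0.0901). Its value was -0.62 without UMUC3 BCUC-1 and -0.34 without UMUC3 vector. TERC, the telomerase RNA, had 1, 1, 2 and 4 reads in T24T BCUC-1, T24T vector, UMUC3 BCUC-1 and UMUC3 vector, so it was hardly measured.

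For each of the 5 genes called between the lines, FGFR3 included, the 3 genes with the closest profile were found by the Euclidean distance of log2(RPKM + 1), centred per gene, over the 4 libraries. There were 14601 genes with a mean of at least 1 RPKM. The closest were ANKS1A, PSMB10 and GALNT4 for HRAS, PCBP1-AS1, PPIL1 and CRLS1 for NRAS, and DIAPH2, CAMK2D and DUS4L for PIK3CA. For FGFR3 they were FBF1, AMACR and AP000295.9, and for TERT they were THOC6, STK25 and PLXNB2. The distances were 0.0078 to 0.026 for the first 4 genes and 0.052 to 0.073 for TERT, the largest of the 5 ranges. A close profile over 4 libraries, picked from so many genes, is a description, and shared regulation was not tested.

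The second comparison asked whether any of the 7 genes differed with BCUC-1 over both lines. None passed. Limma, with the line as a block, called 0 of 7, beside 0.0% of the 15415 genes tested, where 652 genes had an unadjusted p under 0.05 and limma-voom called 11. The 7 differences lay between -0.11 for FGFR3 and 0.11 for HRAS on the log2 scale, with standard errors from 0.075 to 0.13. The smallest unadjusted p among them was 0.190 from limma, for HRAS. The median over the 7 was -0.090, beside 0.0035 for all genes. With 2 libraries a group, a p that misses the threshold does not show equal levels.

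In the 6 pathway lists 0 genes passed this limma test. The lists held between 12 and 43 genes above the floor, and their median log2 differences lay between -0.013 and 0.026. DKC1 (0.11) and CDK4 (0.051) were among the genes that did not pass.

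Within T24T, where 1 library stood for each group and the differences have no replicate check, none of the 7 genes differed 2-fold on the log2(RPKM + 1) scale. Of the 14946 genes above 1 RPKM in either library, 0.288% were at least 2-fold higher and 0.314% at least 2-fold lower. HRAS had 2060 reads with BCUC-1 and 2063 with vector, a ratio per assigned read of 1.00 (95% interval 0.943 to 1.07). RB1 had 2223 and 2214 reads, a ratio of 1.01 (0.950 to 1.07). NRAS was at 1.05 with an interval just above 1 (1.00 to 1.09), and BRAF was at 0.927 (0.857 to 1.00).

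The remaining T24T ratios were below 1. TERT had 648 reads with BCUC-1 and 760 with vector, a ratio of 0.856 (0.770 to 0.952). FGFR3 stood at 0.779 (0.613 to 0.987) and PIK3CA at 0.901 (0.815 to 0.996). The interval missed 1 for 4 of 7 genes, beside 15.4% of all genes. It lay above 1 for NRAS alone of the 7, beside 5.41% of all genes, and below 1 for 3, beside 9.98%. The width of an interval depends on the reads of the gene, so these shares are not matched. Counting error is all that the intervals cover, because 1 library stands for each group. Reads that carry no molecular identifier may be copies of 1 molecule, so even that error may be understated. The intervals compare 2 libraries, not the conditions.

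Within UMUC3, TERT and HRAS were above 1 and RB1 and NRAS below it. TERT had 270 reads with BCUC-1 and 239 with vector, a ratio of 1.32 (1.10 to 1.57), and HRAS had 1135 and 1125 reads, a ratio of 1.18 (1.08 to 1.28). RB1 had 2145 reads with BCUC-1 and 2876 with vector, a ratio of 0.869 (0.822 to 0.920), and NRAS 3331 and 4287 reads, a ratio of 0.906 (0.865 to 0.948). BRAF (0.922, 0.848 to 1.00), PIK3CA (0.930, 0.854 to 1.01) and FGFR3 (0.982, 0.735 to 1.31) had intervals that reached 1 or passed it. The interval missed 1 for 4 of the 6 genes above the floor, beside 35.9% of all 14347 genes. It lay above 1 for 2, beside 21.0% of all genes, and below 1 for 2, beside 14.9%. None of the 6 differed 2-fold, as for all but 0.383% of genes that were at least 2-fold higher and 0.369% that were at least 2-fold lower.

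**Figure D4:**
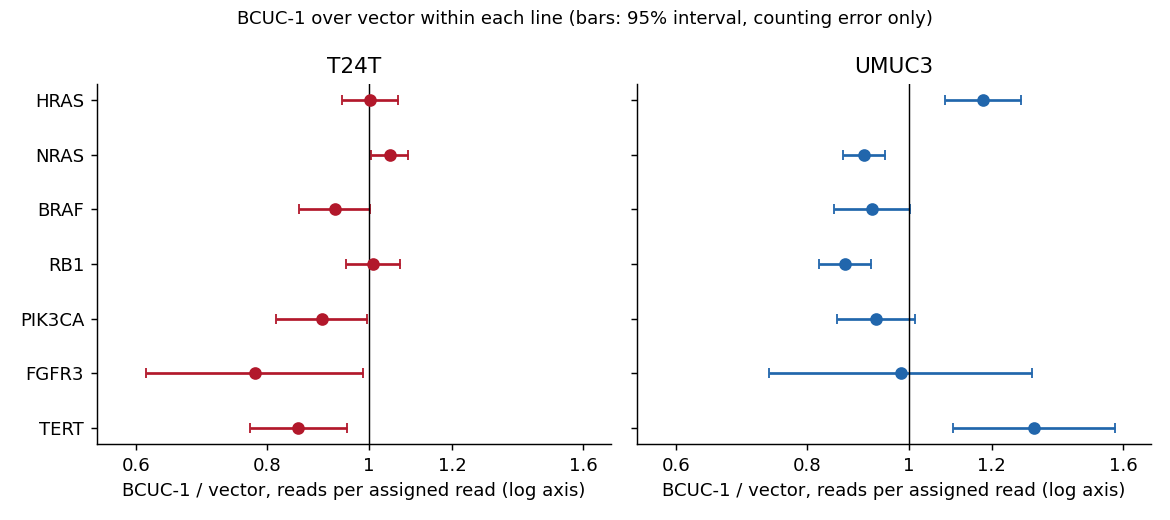
Ratio of BCUC-1 to vector in reads per assigned read (log axis) in T24T and UMUC3, with exact conditional binomial 95% intervals for counting error. TERT is below 1 in T24T at 0.856 and above 1 in UMUC3 at 1.32.

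In UMUC3 the direction of the differences moved with base composition, over all genes and for 6 of the 7. HRAS and TERT, whose longest GENCODE transcripts are 65.8% and 65.7% G or C, were above 1. NRAS (38.4%), BRAF (40.0%), RB1 (37.3%) and PIK3CA (34.8%) were below 1, though among these 4 PIK3CA, the lowest in GC content, was nearest to 1. FGFR3 (62.0%) was the exception, just under 1. Across 11601 genes the UMUC3 differences had a Spearman rho of 0.568 with GC content, against 0.0232 in T24T. Genes are not independent replicates and share these libraries. The median log2 difference of UMUC3 genes was -0.16 in the lowest of 20 groups of GC content and 0.18 in the highest, which holds HRAS and TERT.

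With the median of its GC group removed, HRAS in UMUC3 stood at 0.041, where it had been 0.22 on the log2 scale. TERT stood at 0.091, where it had been 0.27. RB1 stood at -0.075 and NRAS at -0.048, where they had been -0.19 and -0.14. PIK3CA changed sign, to 0.072 where it had been -0.086, and BRAF stood at -0.023 where it had been -0.095. FGFR3 was below the floor in UMUC3 and had no corrected value. In T24T the same correction left TERT at -0.17 (uncorrected -0.19), FGFR3 at -0.17 (-0.20) and PIK3CA at -0.085 (-0.12).

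**Figure D5:**
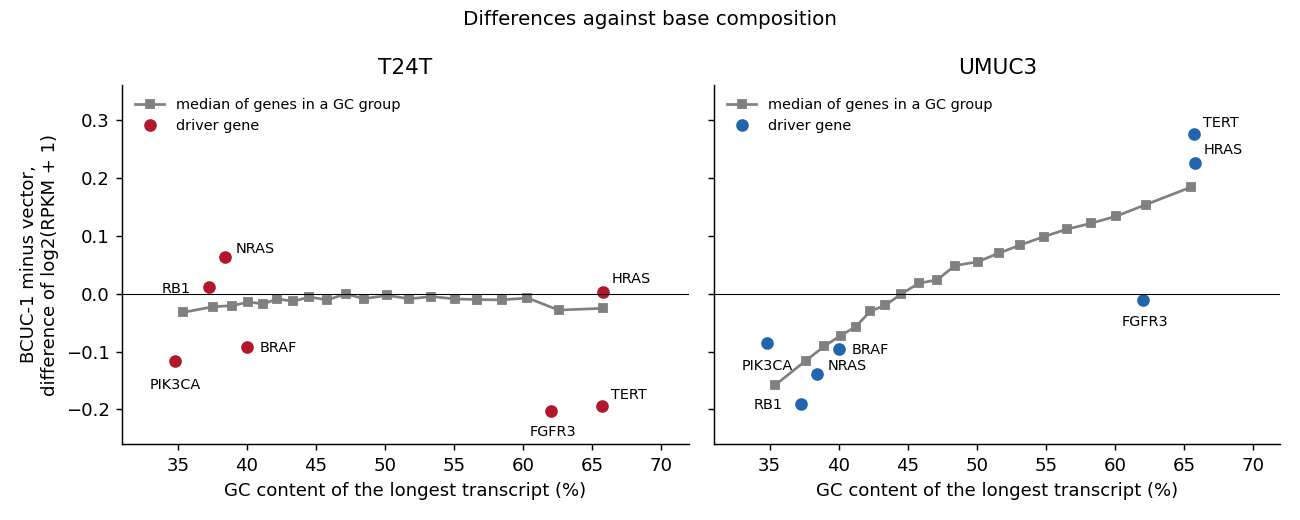
BCUC-1 minus vector difference in log2(RPKM + 1) against the GC content of the longest transcript, for the driver genes and for the medians of 20 GC groups. In UMUC3 the group medians run from -0.16 to 0.18 and HRAS and TERT lie at the upper end, whereas in T24T the medians stay between -0.033 and -0.00062.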

How the data were processed

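Total RNA was isolated with a column kit and made into Illumina libraries, per the labels' protocols. The values are RPKM as deposited, 1 column per library, normalized by the authors for gene length and for assigned reads. A Length column in bases stands beside them, per the file headers. Per the submitters' processing notes Bowtie 0.12.2 was used. Its role, the build, annotation and counter were not given in the sources used here. Coordinates are given as GRCh38, because 96.5% of 22720 symbols had the start or end of their GENCODE 29 gene. Multiplying RPKM by length gave multiples of a step in each library, which was taken as 1 read and fitted to set the depth. With that depth 100% of values were whole reads within 0.001 reads.

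Lines and treatments were compared with limma 3.58.1 in R 4.3.3, using a variance trend, on log2(RPKM + 1), fitted on the whole table with line and treatment terms and 1 residual degree of freedom. A line by treatment interaction leaves none and was not tested. Within a line, a gene counted as different at a log2 difference of at least 1. The fit was also run on simulated counts with set line differences, without a treatment effect or a GC trend. That run therefore does not bear on whether the calls in these libraries hold. Other settings were a pseudocount of 0.1, no floor or a floor of 5 RPKM, equal medians, quantile normalization, limma-voom, other model terms, each library left out, and a correction for GC content, which was added for the limma fits after the data were seen. The 7 genes, the 6 pathway lists, their partner genes and the markers were chosen by name, with earlier results of these data known. All 7 genes, the fixed partners and, per list, up to 4 called genes with the largest line difference were named, together with the 3 closest profiles. Some genes that this rule names are not reported here. UPK3A, CD68, KRT8 and the other markers named, and KCNMB3 and NDUFB2, were picked after their values were seen. Sequences are from RefSeq, in which all 7 genes had a window.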

Additional observations from a re-analysis of the deposited data

Results flagged for a closer look

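For NRAS, RB1 and TERT the BCUC-1 minus vector value had opposite signs in the 2 lines. With 1 library a group, the difference between the lines was not tested. For RB1 the T24T value lay within counting error of 0, so it gives no direction there. The log2 differences were -0.19 in T24T and 0.27 in UMUC3 for TERT, 0.063 in T24T and -0.14 in UMUC3 for NRAS, and 0.011 in T24T and -0.19 in UMUC3 for RB1. With the GC trend of each line removed the UMUC3 values were 0.091 for TERT, -0.048 for NRAS and -0.075 for RB1. The T24T values with it removed were -0.17 for TERT, 0.084 for NRAS and 0.033 for RB1. Each corrected UMUC3 value was smaller in size than the counting error of its own ratio, so it gives no direction.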

How the results depend on the processing

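HRAS and TERT were called higher in T24T under all 12 other settings of the line test. At a floor of 5 RPKM, though, TERT entered through T24T alone, so its call there is a description and not support. BRAF also entered at that floor through T24T alone and was not called. The count of the 7 genes called, 5 in the main test with FGFR3 counted, was 2 with no filter. It was 3 at a floor of 5 RPKM with TERT counted, where PIK3CA and FGFR3 were not tested. Over all genes the count was 10847 of 15415 in the main test, 9908 of 32973 with no filter and 6780 of 8830 at that floor. Leaving a library out leaves 1 library for a line that is assumed to vary like the other. RB1 was called lower in T24T with limma-voom, with the GC trend removed (-0.29) and without the UMUC3 BCUC-1 library (-0.20). FGFR3, counted among the 5, was not called with no filter, quantile normalization or the GC trend removed, or without T24T vector, UMUC3 BCUC-1 or UMUC3 vector. Genes that did not pass the line test changed sign at ARAF (-0.19 to 0.042 with a library left out, above 0 without UMUC3 BCUC-1), RBL2 (-0.021 with equal medians, -0.034 with quantile normalization, -0.058 with limma-voom, -0.0012 with the GC trend removed) and PIK3CB (-0.010 with quantile normalization, -0.020 with limma-voom, -0.050 with the GC trend removed). For BCUC-1 over both lines the count of all genes, 0 in the main test, was 1 with a pseudocount of 0.1, 60 at a floor of 5 RPKM and 11 with limma-voom, and the count of the 7 genes was 0 under every setting. There NRAS changed sign with the GC trend removed (0.024), and TERT did with limma-voom (-0.0060) and with the GC trend removed (-0.045). Genes at least 2-fold different with a pseudocount of 0.1 numbered 254 in T24T and 280 in UMUC3, where the main counts were 90 and 108. The causes of these changes were not tested. BCUC-1 and vector were paired within each line by the line block of the main test, and without that block 0 genes were called. The labels give no replicate numbers for any other pairing. Leaving out a library leaves no residual degree of freedom for the BCUC-1 test with the line block, so each line's own value stands in its place. The values of FGFR3 and TERC rest on few reads, at most 165 and 4 in a library, and the reason for the low counts was not tested.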

Other observations

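Other genes often mutated in bladder cancer were called between the lines about as often as any gene. Of 48 such genes, 43 passed the floor and limma called 30, beside 70.4% of all genes tested. Of these, 17 were higher and 13 lower in T24T, with a median log2 difference of 0.092 beside 0.10 for all genes. STAG2, a cohesin subunit, had 31.9 and 33.7 RPKM in T24T BCUC-1 and vector, against 2.27 and 2.50 RPKM in UMUC3, a log2 difference of 3.32 (SE 0.080, limma adjusted p = 7.95e-07). EGFR, the epidermal growth factor receptor, was higher in T24T (log2 difference 1.58), and so was MDM2, a ubiquitin ligase, at 17.4 and 18.1 RPKM in T24T BCUC-1 and vector, against 6.44 and 7.33 RPKM in UMUC3. None of the 43 passed the limma test of BCUC-1 against vector, where their differences lay between -0.12 and 0.18.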
